A study of Rattus norvegicus with 30 samples.

Results

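The C/EBP genes encode CCAAT/enhancer-binding proteins, a small family of basic leucine zipper transcription factors. Cebpa, Cebpb, Cebpd and Cebpg were taken by symbol from the tables of read counts and FPKM (fragments scaled by gene length and library depth) of rat lung, and are 4 of the 22914 genes counted. All 4 passed the filter on low counts that left 15934 genes for testing. The libraries came from 30 male Sprague Dawley rats, 8 weeks old, with 3 rats in each of 10 groups. In the SAP groups, 5.0% sodium taurocholate was infused into the biliopancreatic duct to induce severe acute pancreatitis and the lung injury that follows it. The DEX groups received taurocholate and then the glucocorticoid dexamethasone intravenously at 10 mg/kg. The Emo groups received taurocholate and then emodin, a plant anthraquinone, by the stomach, at a dose given as 40 mg/kg in the treatment protocol and as 10 mg/kg in the sample descriptions. The Con groups received saline into the duct, and the Sham groups only had the pancreas slightly moved. All rats were fasted and anaesthetised with pentobarbital. Rats not given dexamethasone received saline intravenously in its place, and rats not given emodin received carboxymethylcellulose by the stomach. Lungs were collected at 6 h or 24 h, and doses were given at 2 h and 12 h, so that rats of the 6 h groups had 1 dose. Reads on genes numbered 16813949 to 34692306 per library, and the member with fewest reads had 1386 in its lowest library. The authors' sequencing summary lists a lower share of uniquely mapped reads in every library of rats given taurocholate than in every Con and Sham library, which cannot be told apart from pancreatitis. In the deposited tables, the total that FPKM were scaled by stayed at 0.969 to 1.09 times the reads on genes, relative to the median library, and so did not follow that share. In whole lung, fewer cells of a type and less RNA per cell cannot be told apart. The lungs carried the marker genes of their tissue, with 8 alveolar type 2 cell genes summing to between 25100 and 47800 FPKM, against 5.19 to 42.7 for 5 liver genes.

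C/EBP proteins bind DNA as dimers, with themselves, with each other or with related leucine zipper proteins such as ATF4. C/EBPα favours differentiation and rest, and in lung it is needed for mature alveolar type 2 and club cells. C/EBPβ and C/EBPδ are raised by cytokines of the interleukin-6 and interleukin-1 families and by glucocorticoids, and they switch on acute phase and inflammatory genes. C/EBPγ lacks a classical activation domain. It can act as a partner that restrains other members, and it pairs with ATF4 on genes of the stress response.

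The promoters are shown as a description of the genes, which lie on 3 chromosomes. The part of promoter sequence in how far the 4 genes moved with injury and treatment was not tested. By the count table, Cebpa (ENSRNOG00000010918) and Cebpg (ENSRNOG00000021144) lie on chromosome 1, Cebpb (ENSRNOG00000057347) on chromosome 3 and Cebpd (ENSRNOG00000050869) on chromosome 11. The RefSeq table of promoters held 3 of the 4 members, on build GRCr8, and Cebpd was not among them. The 250 bases before the start of transcription are printed for Cebpb (chr3:176816755-176817004, plus strand), Cebpa (chr1:96896334-96896583, plus strand) and Cebpg (chr1:96829737-96829986, minus strand). Capitals mark the matches to the 6 motifs described after the sequences, each read on both strands.
Cebpb: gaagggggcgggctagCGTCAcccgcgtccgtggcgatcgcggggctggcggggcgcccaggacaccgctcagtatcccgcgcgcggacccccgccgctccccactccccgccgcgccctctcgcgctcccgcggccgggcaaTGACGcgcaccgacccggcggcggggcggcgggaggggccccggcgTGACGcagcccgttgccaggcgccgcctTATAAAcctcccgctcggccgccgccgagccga
Cebpa: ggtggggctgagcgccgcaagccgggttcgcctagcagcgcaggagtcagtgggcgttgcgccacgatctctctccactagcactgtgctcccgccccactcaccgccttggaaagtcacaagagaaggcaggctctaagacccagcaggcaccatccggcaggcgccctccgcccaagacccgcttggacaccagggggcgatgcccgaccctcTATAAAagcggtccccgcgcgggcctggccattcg
Cebpg: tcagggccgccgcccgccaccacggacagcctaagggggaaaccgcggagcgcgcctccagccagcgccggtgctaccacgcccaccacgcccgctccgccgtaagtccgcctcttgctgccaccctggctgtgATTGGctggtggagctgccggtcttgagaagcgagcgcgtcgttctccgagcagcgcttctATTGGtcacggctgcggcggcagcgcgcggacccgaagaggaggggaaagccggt

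The window of Cebpb held the letters TATAAA, which the TATA-binding protein recognises, 33 bases before the start, and that of Cebpa held them 35 bases before it. TATAAA was present in 13.1% of the 27457 rat promoter windows searched, and was not in the window of Cebpg. The window of Cebpb also held TGACG, the core of the cyclic AMP response element, at 107 and 61 bases before the start on the plus strand and at 234 bases before it on the minus strand, where it is printed as CGTCA. The letters TGACG were found in 19.0% of all windows and in neither of the other members' windows. The window of Cebpg instead held CCAAT at 116 and 55 bases before the start, both on the minus strand and printed as ATTGG. The letters CCAAT were found in 34.3% of all windows. The STAT-type site TTCNNNGAA, the glucocorticoid receptor core AGAACA and the C/EBP-type site TTGCNNAA, found in 7.52%, 17.1% and 9.2% of all windows, had no match in the windows of the 3 genes. The bases G and C made up 80.0% of the window of Cebpb, 70.4% of that of Cebpg and 67.2% of that of Cebpa.

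Cebpd and Cebpb were the abundant members in lung. On the FPKM scale, which allows comparison of levels between genes, Cebpd averaged 303 over the 30 libraries and ranked 247th of all genes, and Cebpb averaged 247 and ranked 295th. Cebpa averaged 55.5 (1327th) and Cebpg 22.2 (3094th). Cebpd also covered the widest range, with its highest group mean 4.18 times its lowest, followed by Cebpb at 2.94 times. Cebpg covered 1.58 times and Cebpa 1.39 times. Thus the sum of the 4 genes was made up mostly of Cebpb and Cebpd. In Sham-24h, Cebpa made up 14.1% ± 2.59 (SD, n = 3) of the summed FPKM and Cebpg 7.23% ± 1.10, and in SAP-24h these shares were 6.21% ± 2.35 and 3.15% ± 0.841.

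**Figure D1:**
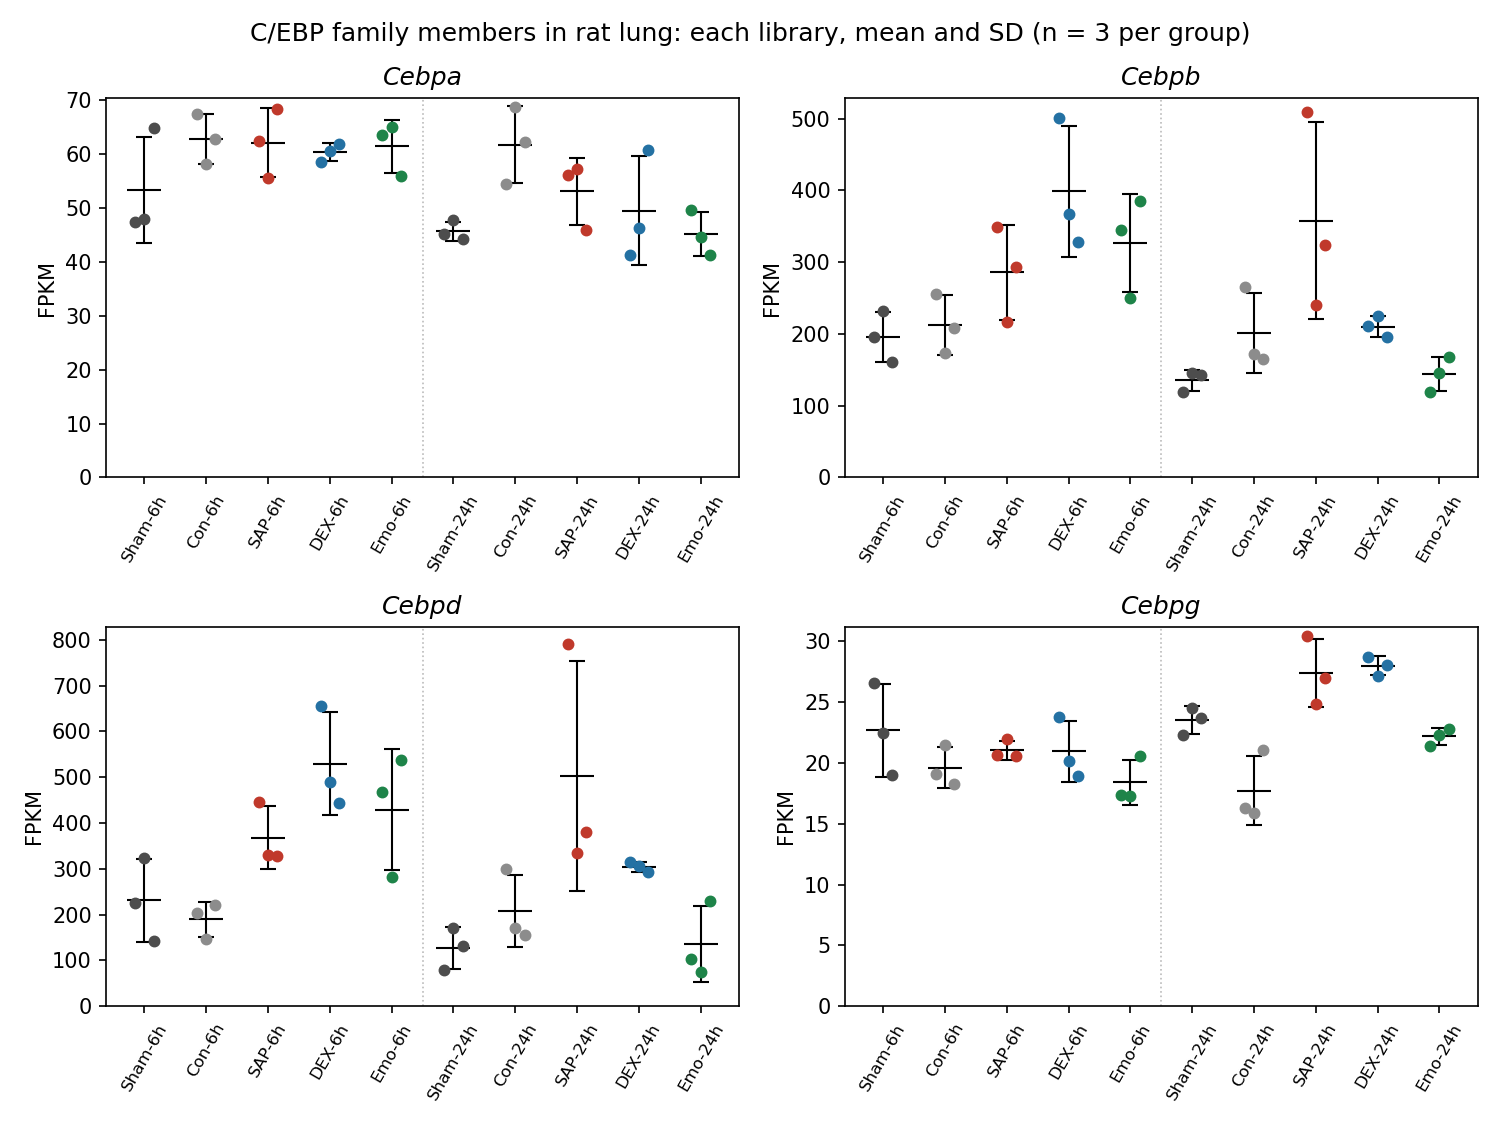
FPKM (linear axis) of Cebpa, Cebpb, Cebpd and Cebpg in each of the 30 libraries by group, with points for rats and bars for mean and SD (n = 3). Cebpb and Cebpd were highest in DEX-6h and SAP-24h and lowest in Sham-24h and Emo-24h, while Cebpa stayed between 41.24 and 68.66 FPKM.

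The order of the 10 groups was shared at its ends by Cebpb and Cebpd. In both, the group means ran from DEX-6h through SAP-24h, Emo-6h and SAP-6h at the top to Emo-24h and Sham-24h at the bottom. For Cebpb, mean levels were 399 FPKM ± 90.8 (SD, n = 3) in DEX-6h, 358 ± 137 in SAP-24h, 327 ± 68.8 in Emo-6h and 286 ± 66.4 in SAP-6h. They were 213 ± 41.6 in Con-6h, 210 ± 14.3 in DEX-24h, 201 ± 55.8 in Con-24h, 196 ± 35.0 in Sham-6h, 144 ± 24.2 in Emo-24h and 135 ± 14.8 in Sham-24h. Each group of Cebpb overlapped with its neighbour in this order. For Cebpd, means were 530 FPKM ± 112 in DEX-6h, 502 ± 252 in SAP-24h, 429 ± 132 in Emo-6h, 368 ± 68.4 in SAP-6h and 305 ± 11.4 in DEX-24h. They were 231 ± 90.4 in Sham-6h, 208 ± 78.5 in Con-24h, 190 ± 38.4 in Con-6h, 136 ± 82.4 in Emo-24h and 127 ± 46.5 in Sham-24h. Among neighbours of Cebpd, only SAP-6h and DEX-24h did not overlap.

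For Cebpa, group means ran from 62.7 FPKM ± 4.70 in Con-6h, 62.0 ± 6.42 in SAP-6h, 61.7 ± 7.17 in Con-24h, 61.4 ± 4.89 in Emo-6h and 60.3 ± 1.65 in DEX-6h down to 53.4 ± 9.82 in Sham-6h, 53.0 ± 6.23 in SAP-24h, 49.4 ± 10.1 in DEX-24h, 45.7 ± 1.77 in Sham-24h and 45.1 ± 4.15 in Emo-24h, and every neighbour overlapped. For Cebpg, means were 28.0 FPKM ± 0.775 in DEX-24h and 27.4 ± 2.81 in SAP-24h, followed without overlap by 23.5 ± 1.12 in Sham-24h. The other 7 groups of Cebpg ran from 22.7 ± 3.80 in Sham-6h down to 17.7 ± 2.86 in Con-24h, each overlapping with the next. The highest levels of Cebpg were thus at 24 h, and those of Cebpa were mostly at 6 h.

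The first question of the design was what pancreatitis did to the lung, by comparison of SAP with Sham at each time. At 24 h, Cebpb and Cebpd were up-regulated, and Cebpa and Cebpg did not pass the test. Cebpb stood at 118, 145 and 143 FPKM in the rats of Sham-24h and at 509, 241 and 324 in those of SAP-24h. Cebpd stood at 78.5, 171 and 131 in Sham-24h and at 792, 335 and 381 in SAP-24h. The groups did not overlap for either gene, and replicate 1 of SAP-24h was the highest library for both. In edgeR's quasi-likelihood test over all 30 libraries, with Benjamini-Hochberg adjustment over all genes tested, Cebpb was 2.92-fold higher (log2 fold change 1.55, SE 0.281, adjusted p = 0.00203). Cebpd was 4.38-fold higher (log2 fold change 2.13, SE 0.431, adjusted p = 0.00355). A gene was called where its adjusted p was under 0.05 and its change at least 2-fold, which held for 5.00% of the 15934 genes tested in this comparison, 1.98% in the higher direction. Groups that did not overlap, with SAP-24h higher, were seen in 7.58% of genes. Without replicate 1 of SAP-24h, the log2 fold change was 1.14 for Cebpb (edgeR adjusted p = 0.0156) and 1.57 for Cebpd (adjusted p = 0.031). In a model of these 2 groups alone, the values were almost the same but the adjusted p rose to 0.0908 and 0.0995, where edgeR called 0.0200% of genes.

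Cebpa and Cebpg were not called at 24 h. Cebpa stood at 45.1, 47.7 and 44.3 FPKM in Sham-24h and at 56.0, 57.2 and 45.9 in SAP-24h, where the lowest rat fell within the Sham range. Its log2 fold change was 0.35 (95% confidence interval 0.04 to 0.65, edgeR adjusted p = 0.12). Cebpg stood at 22.3, 24.5 and 23.7 FPKM in Sham-24h and at 30.4, 24.9 and 27.0 in SAP-24h. These did not overlap, but the log2 fold change of 0.35 (95% confidence interval 0.08 to 0.62) had an adjusted p of 0.0754 in edgeR.

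At 6 h, no member was called in SAP against Sham, where 0.220% of genes were. Cebpb stood at 196, 231 and 161 FPKM in Sham-6h and at 348, 216 and 293 in SAP-6h, and the groups overlapped. Its log2 fold change of 0.60 (95% confidence interval 0.03 to 1.17) had an adjusted p of 0.344 in edgeR. Cebpd stood at 226, 324 and 143 FPKM in Sham-6h and at 447, 329 and 328 in SAP-6h, all above the highest Sham-6h rat, as in 5.58% of genes. Its log2 fold change was 0.73 (95% confidence interval -0.13 to 1.59, edgeR adjusted p = 0.48). The test of whether the effect of SAP differed between 24 h and 6 h gave 0.94 for Cebpb (edgeR adjusted p = 0.313) and 1.40 for Cebpd (adjusted p = 0.319) on the log2 scale, with 0.0314% of genes called, so that a difference between times was not shown. Leaving out 1 library gave 0.54 to 1.19 for Cebpb and 0.84 to 1.7 for Cebpd.

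**Figure D2:**
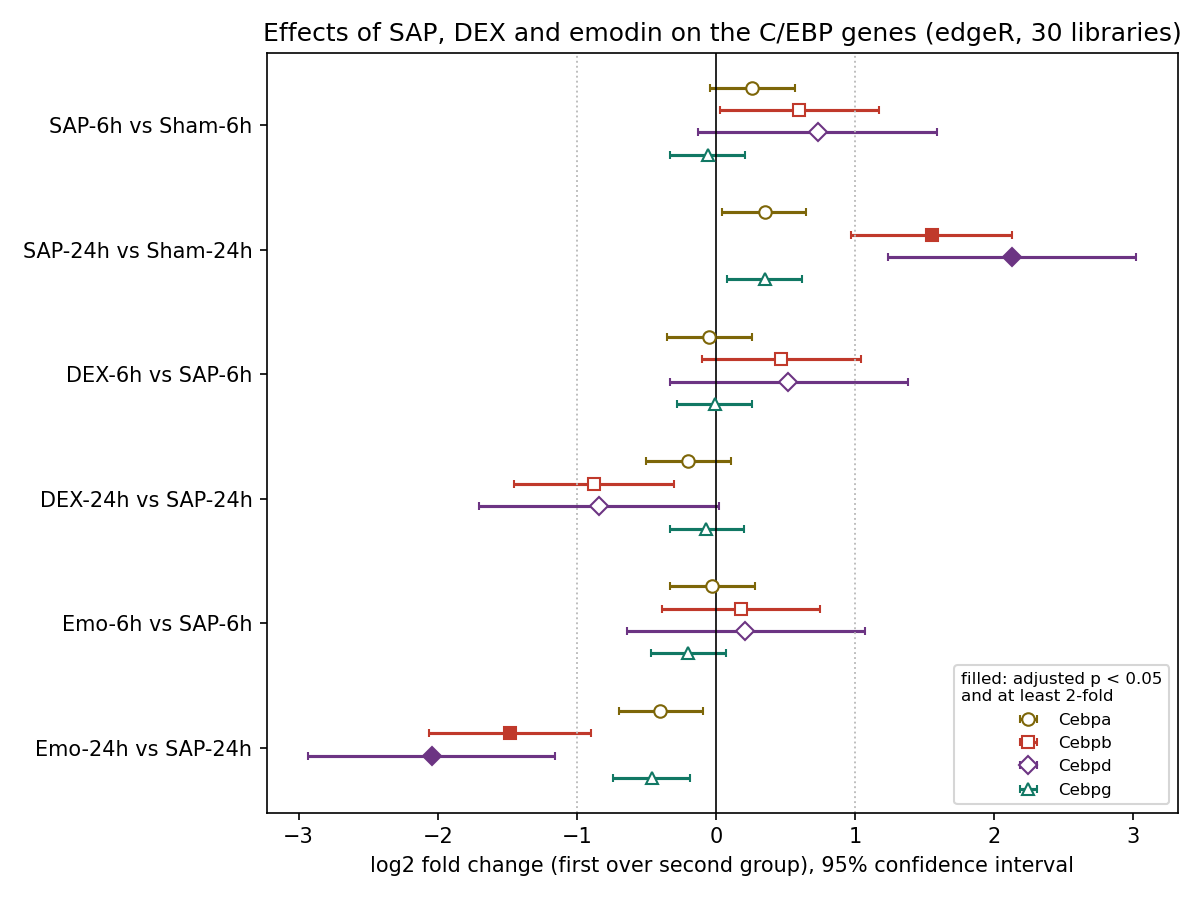
Log2 fold change (horizontal axis, first over second group) of the 4 genes in 6 comparisons, with 95% confidence intervals from edgeR over 30 libraries, and filled symbols for genes called. Cebpb and Cebpd were called in SAP-24h against Sham-24h and, in the other direction, in Emo-24h against SAP-24h, and Cebpa and Cebpg in none of these 6 comparisons.

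The next question was what DEX and emodin did in rats with pancreatitis. These comparisons share the SAP rats with the comparison of SAP and Sham, so a high library of SAP-24h enters both. At 24 h, emodin-treated rats had less of both inflammatory members. Cebpb stood at 119, 146 and 167 FPKM in Emo-24h, below each SAP-24h rat, and was 2.79-fold lower than in SAP-24h (log2 fold change -1.48, SE 0.280, edgeR adjusted p = 0.00465). Cebpd stood at 104, 74.9 and 229.7 FPKM in Emo-24h, again below each SAP-24h rat, and was 4.12-fold lower (log2 fold change -2.04, SE 0.430, edgeR adjusted p = 0.00706). Called genes made up 3.19% of those tested here, and groups that did not overlap, with Emo-24h lower, 6.23%. Without replicate 1 of SAP-24h, the log2 fold changes were -1.08 for Cebpb (edgeR adjusted p = 0.0278) and -1.49 for Cebpd (adjusted p = 0.047), and without replicate 2 of Emo-24h Cebpd had an adjusted p of 0.0518. Without replicate 3 of Emo-24h the log2 fold change of Cebpd was -2.74. In a model of these 2 groups alone, adjusted p was 0.113 for Cebpb and 0.136 for Cebpd, where edgeR called 0.00% of genes.

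Cebpg was also lower in Emo-24h, at 21.4, 22.3 and 22.8 FPKM, without overlap with SAP-24h. Its log2 fold change of -0.46 (SE 0.131, edgeR adjusted p = 0.0314) was under 2-fold and so was not called, and an adjusted p under 0.05 was reached by 8.59% of genes. Cebpa stood at 49.5, 44.6 and 41.3 FPKM in Emo-24h, with a log2 fold change of -0.40 (95% confidence interval -0.70 to -0.09, edgeR adjusted p = 0.0904). When Emo-24h was set against Sham-24h, the log2 differences were 0.07 for Cebpb (95% confidence interval -0.50 to 0.63), 0.09 for Cebpd (-0.77 to 0.94), -0.05 for Cebpa (-0.35 to 0.26) and -0.11 for Cebpg (-0.38 to 0.16). Of the 15934 genes tested, edgeR (0.00%) and DESeq2 called 0 in that comparison, and 1.30% passed at an unadjusted p under 0.05 with a 2-fold change. These intervals leave room for a difference of nearly 2-fold in Cebpd.

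In DEX-24h, the lower values of Cebpb and Cebpd did not pass the test. Cebpb stood at 211, 224 and 196 FPKM in DEX-24h, below each SAP-24h rat, with a log2 fold change of -0.88 (95% confidence interval -1.45 to -0.30, edgeR adjusted p = 0.053). Cebpd stood at 315, 306 and 292 FPKM in DEX-24h, also below each SAP-24h rat, with a log2 fold change of -0.84 (95% confidence interval -1.70 to 0.02, edgeR adjusted p = 0.23). Called genes made up 3.73% of those tested, and groups without overlap and lower in DEX-24h made up 8.65%. Without replicate 1 of SAP-24h the log2 fold changes were -0.46 for Cebpb and -0.27 for Cebpd, and without replicate 2 of SAP-24h that of Cebpb was -1.11 and was called (edgeR adjusted p = 0.0187). For Cebpd, the 3 rats of DEX-24h lay close together, with a coefficient of variation of 3.76% against 60.5% in Emo-24h and 50.1% in SAP-24h. In DEX-24h it was 6.79% for Cebpb and 2.77% for Cebpg, but 20.5% for Cebpa, the highest of the 10 groups for that gene. Cebpg in DEX-24h, at 28.7, 27.2 and 28.1 FPKM, was within the SAP-24h range (log2 fold change -0.07, 95% confidence interval -0.33 to 0.20). Cebpa stood at 41.2, 46.3 and 60.7 FPKM in DEX-24h (log2 fold change -0.20, 95% confidence interval -0.50 to 0.11).

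The treatments were also compared directly at 24 h. Cebpb, Cebpd and Cebpg were lower in each Emo-24h rat than in each DEX-24h rat, as in 10.8% of genes, and Cebpa overlapped. Cebpd had a log2 fold change of -1.21 (95% confidence interval -2.07 to -0.34, edgeR adjusted p = 0.0748). Cebpb differed by -0.61 (95% confidence interval -1.17 to -0.04, adjusted p = 0.199), Cebpg by -0.40 (-0.67 to -0.13, adjusted p = 0.0563) and Cebpa by -0.20 (-0.50 to 0.11, adjusted p = 0.501). Called genes made up 5.06% of those tested in this comparison and no member was among them, although DESeq2, which called 6.20% of genes, called Cebpd. DEX-24h differed from Sham-24h by 1.29 for Cebpd (95% confidence interval 0.42 to 2.16, edgeR adjusted p = 0.065) and by 0.67 for Cebpb (0.10 to 1.24, adjusted p = 0.159), with no overlap of the rats for either gene. Called genes made up 4.15% there, and groups that did not overlap, with DEX-24h higher, 10.2%.

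At 6 h, the treated rats did not differ from SAP rats past the test in any member. Cebpb stood at 501, 367 and 328 FPKM in DEX-6h and at 345, 251 and 385 in Emo-6h, both overlapping with SAP-6h. Cebpd stood at 657, 489.8 and 444 FPKM in DEX-6h and at 468, 282 and 537 in Emo-6h, which also overlapped with SAP-6h. DEX-6h differed from SAP-6h by 0.47 for Cebpb (95% confidence interval -0.10 to 1.04) and by 0.52 for Cebpd (-0.33 to 1.38) on the log2 scale. Emo-6h differed from SAP-6h by 0.18 for Cebpb (-0.39 to 0.75) and by 0.21 for Cebpd (-0.64 to 1.07). None of these passed edgeR's test, where called genes made up 0.515% and 0.0251% of those tested. Against Sham-6h, however, Cebpb was called in DEX-6h, at 2.11-fold higher (log2 fold change 1.08, SE 0.278, edgeR adjusted p = 0.0170, 3.97% of genes called), and Cebpd was 2.38-fold higher at an adjusted p of 0.059. The call of Cebpb was lost without replicate 1 of DEX-6h (log2 fold change 0.88, adjusted p = 0.0938) and without replicates 1 or 3 of Sham-6h. In that comparison 1 of 8 macrophage genes and 1 of 6 endothelial genes were called lower, where 1.73% of all genes were, and endothelial sums were 1400 to 1540 FPKM in DEX-6h and 1140 to 1150 in Sham-6h, without overlap. Their part in the call of Cebpb was not tested.

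The effect of emodin on Cebpb and Cebpd passed the test of a difference between the times in the model of all 30 libraries. The difference of the Emo-against-SAP effects, 24 h minus 6 h, was -1.66 for Cebpb (SE 0.391, edgeR adjusted p = 0.0295) and -2.26 for Cebpd (SE 0.592, adjusted p = 0.0399), with 1.68% of genes called. It was -0.37 for Cebpa (95% confidence interval -0.80 to 0.06) and -0.26 for Cebpg (-0.64 to 0.12). For DEX the same difference was -1.35 for Cebpb (adjusted p = 0.139) and -1.36 for Cebpd (adjusted p = 0.318), where edgeR called 0.138% of genes. With 1 library left out, the difference for DEX ran from -1.59 to -0.94 for Cebpb and from -1.61 to -0.8 for Cebpd. Whether the difference between times was itself unlike in emodin and DEX was not tested. The interaction for emodin was called in 6 of 12 fits that each left out 1 library for Cebpb, and in 5 of 12 for Cebpd. Without replicate 1 of SAP-24h it was -1.26 for Cebpb (edgeR adjusted p = 0.061) and -1.70 for Cebpd (adjusted p = 0.0895). The call was also lost for both genes without replicate 1 or 2 of Emo-24h, replicate 1 or 3 of Emo-6h or replicate 2 of SAP-6h, and for Cebpd without replicate 3 of SAP-6h. Without replicate 3 of Emo-24h it was -2.95 for Cebpd. In a model of the compared groups alone, edgeR's adjusted p was 0.128 for Cebpb and 0.137 for Cebpd, where 0.0129% of genes were called.

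Times were also compared within groups, and Cebpb and Cebpd were called between times in the Emo groups. Within the Emo groups, Cebpb was 2.33-fold lower at 24 h than at 6 h (log2 fold change -1.22, SE 0.279, edgeR adjusted p = 0.00195) and Cebpd 3.21-fold lower (-1.68, SE 0.425, adjusted p = 0.00419), where 9.41% of genes were called. Without replicate 3 of Emo-24h, the value of Cebpd was -2.36. Cebpa was lower too, by less than 2-fold (log2 fold change -0.49, edgeR adjusted p = 0.0132), where 34.1% of genes had an adjusted p under 0.05. Markers of other cells also differed between Emo-24h and Emo-6h. Of 6 red cell genes 4 could be tested, and all 4 were called lower at 24 h (median log2 fold change -3.41), where 3.08% of all genes were, with sums of 2990 to 7350 FPKM at 6 h and 288 to 1340 at 24 h. Of 6 endothelial genes and 5 liver genes, 1 each was called lower, and the endothelial sums were 1150 to 1720 FPKM at 6 h and 826 to 1010 at 24 h. Of 8 macrophage genes and 8 alveolar type 2 genes, 1 each was called higher, where 6.33% of all genes were. The lists as a whole were not higher, with median log2 fold changes of 0.04 and -0.12, against 0.03 over all genes. Alveolar type 2 sums were 28800 to 38000 FPKM at 6 h and 26200 to 31500 at 24 h, with overlap. Sums of 6 heart genes were 15.9 to 125 FPKM at 6 h and 104 to 219 at 24 h, with overlap. The part of these markers in the results on Cebpb and Cebpd was not tested. Within the DEX groups, Cebpb had a log2 fold change of -0.91 (adjusted p = 0.0185) and Cebpd one of -0.79 (adjusted p = 0.168), where 7.14% of genes were called. Within the SAP groups, where 2.42% of genes were called, Cebpb had 0.44 (95% confidence interval -0.13 to 1.01) and Cebpd 0.57 (-0.29 to 1.43), and both were near 0 without replicate 1 of SAP-24h (0.02 and 0.00). Within the Sham groups, where 0.257% were called, Cebpb had -0.51 (-1.07 to 0.06) and Cebpd -0.83 (-1.69 to 0.03). Cebpg had an adjusted p under 0.05 with a higher level at 24 h in SAP (log2 fold change 0.49, adjusted p = 0.0306) and in DEX (0.43, adjusted p = 0.0184), both under 2-fold and so not called. Genes with an adjusted p under 0.05 regardless of fold made up 6.01% and 25.9% of those tested in these comparisons. In SAP-24h against SAP-6h, 3 of the 4 red cell genes were called lower (median log2 fold change -2.61), where 1.74% of all genes were, with sums of 6250 to 9470 FPKM at 6 h and 1180 to 2170 at 24 h. Endothelial sums there were 1200 to 1610 FPKM at 6 h and 909 to 960 at 24 h. Club cell sums were 28300 to 29600 and 37500 to 47300, and 0 genes of these 2 lists were called. In DEX-24h against DEX-6h, 2 macrophage, 1 alveolar type 2 and 1 endothelial gene were called higher and 1 neutrophil gene lower, where 3.23% of all genes were called higher and 3.91% lower. The median log2 fold change was 0.39 for the macrophage list, -0.05 for the alveolar type 2 list and -0.68 for the neutrophil list. The endothelial list as a whole was lower at 24 h, with a median log2 fold change of -0.28. Its sums were 1400 to 1540 FPKM in DEX-6h and 982 to 1130 in DEX-24h, without overlap. The part of these markers in the values of Cebpb and Cebpg was not tested.

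The saline-infused Con group serves as a second reference. At 24 h, Cebpb in Con-24h stood at 265, 172 and 166 FPKM, each above the Sham-24h rats as in 13.7% of genes, and Cebpd at 299, 170.2 and 157, with overlap. Con-24h differed from Sham-24h by 0.57 for Cebpb (95% confidence interval 0.00 to 1.14, edgeR adjusted p = 0.185) and 0.71 for Cebpd (-0.15 to 1.57), where 1.00% of genes were called. Measured from Con-24h, Cebpd was still called in SAP-24h (log2 fold change 1.42, SE 0.421, edgeR adjusted p = 0.0188, 6.91% of genes called), while Cebpb was just under 2-fold (0.98, adjusted p = 0.0146). An adjusted p under 0.05 regardless of fold was reached there by 22.1% of genes. The call of Cebpd was lost without replicate 1 of SAP-24h (0.85, adjusted p = 0.178) and without replicates 2 or 3 of Con-24h. It was also lost in a model of these 2 groups alone (1.42, edgeR adjusted p = 0.107), where 1.56% of genes were called. All 9 neutrophil marker genes were also called higher in SAP-24h than in Con-24h (median log2 fold change 4.28), as were 1 of 8 macrophage and 2 of 5 liver genes, while 1 of 6 endothelial genes and 1 liver gene were called lower. Of all genes, 3.65% were called higher and 3.26% lower, and the part of these markers in the call of Cebpd was not tested. Cebpg was lowest in Con-24h, at 16.3, 15.9 and 21.0 FPKM, and was 1.69-fold higher in SAP-24h (log2 fold change 0.76, SE 0.131, edgeR adjusted p = 0.000718). It was lower in Con-24h than in Sham-24h by 0.41 on the log2 scale (adjusted p = 0.0492 in edgeR), where 9.85% of genes had an adjusted p under 0.05. At 6 h, Con and Sham differed in none of the 4 genes by edgeR or DESeq2, which called 0.00% and 0.0440% of genes, and 0 of the 4 had an unadjusted p under 0.05. SAP-6h differed from Con-6h by 1.03 for Cebpd (95% confidence interval 0.16 to 1.89, edgeR adjusted p = 0.368), where 0.163% of genes were called.

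Over the 21 comparisons of 2 groups, Cebpb and Cebpd were each called in 4 by edgeR. In those not described so far, edgeR called 1.41% of genes in Emo-6h against DEX-6h, 0.477% in Emo-6h against Sham-6h and 0.00628% in Con-24h against Con-6h, with none of the 4 members among them. Cebpa and Cebpg were called in 0 by edgeR and in 0 by DESeq2, although an unadjusted p under 0.05 was reached in 4 comparisons by Cebpa and in 8 by Cebpg, where between 3.00% and 44.1% of all genes reached it in each of the 21. At an adjusted p under 0.05 regardless of fold, Cebpb passed in 6, Cebpg in 5, Cebpd in 4 and Cebpa in 1, where between 0.00% and 34.1% of all genes did in each of the 21 (12.4% in SAP-24h against Sham-24h and 9.75% in DEX-6h against Sham-6h). The changes of Cebpg were all under 2-fold. Of the 6 fits that each left out 1 library, its adjusted p in edgeR was no longer under 0.05 in 5 for SAP-24h against SAP-6h (up to 0.137), 5 for Con-24h against Sham-24h (up to 0.233), 3 for Emo-24h against SAP-24h (up to 0.133), 3 for DEX-24h against DEX-6h (up to 0.0992) and 0 for SAP-24h against Con-24h. That of Cebpb was no longer under 0.05 in 3 for DEX-24h against DEX-6h (up to 0.099) and 3 for SAP-24h against Con-24h (up to 0.163). Levels of Cebpg varied less within groups, with coefficients of variation from 2.77% to 16.8%, against 3.76% to 60.5% for Cebpd.

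Because C/EBPα and C/EBPβ compete for like sites, the balance of Cebpb to Cebpa was followed within each library, where it does not depend on library scaling. The log2 ratio averaged 1.56 ± 0.15 (SD, n = 3) in Sham-24h, 2.69 ± 0.57 in SAP-24h, 2.10 ± 0.36 in DEX-24h and 1.66 ± 0.38 in Emo-24h. It averaged 1.67 ± 0.53 in Con-24h. Each SAP-24h rat lay above each Sham-24h rat and each Emo-24h rat, but replicate 1 of Con-24h, at 2.28, lay above the lowest SAP-24h rat, at 2.07. The difference was 1.13 for SAP-24h against Sham-24h and -1.03 for Emo-24h against SAP-24h. Both had a two-sided exact permutation p of 0.10, the smallest that 3 against 3 can give, and 0.30 after Benjamini-Hochberg adjustment over 6 comparisons, so this test could not reach 0.05. DEX-24h differed from SAP-24h by -0.59 (exact p = 0.30) with overlap. At 6 h the ratio was 1.88 ± 0.50 in Sham-6h, 2.18 ± 0.27 in SAP-6h, 2.70 ± 0.36 in DEX-6h and 2.39 ± 0.42 in Emo-6h, and exact p ran from 0.20 to 0.70.

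**Figure D3:**
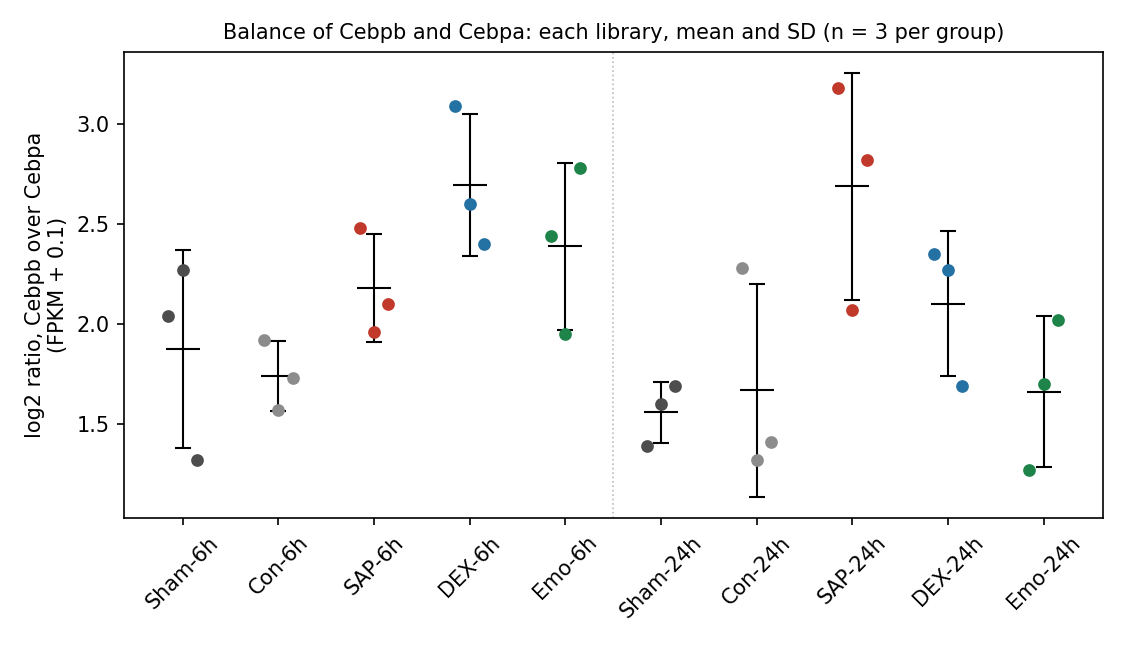
Log2 ratio of Cebpb to Cebpa (FPKM, 0.1 added to each) in each library by group, with points for rats and bars for mean and SD (n = 3). The ratios of SAP-24h, from 2.07 to 3.18, lay above those of Sham-24h, from 1.39 to 1.69, and of Emo-24h, from 1.27 to 2.02.

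Cebpb and Cebpd varied together from rat to rat. Over the 30 libraries, Pearson's r of log2(FPKM + 1) was 0.934 and Spearman's rho 0.927, each with a permutation p of 1e-05, the smallest that 100000 permutations can give (6e-05 after adjustment over the 6 pairs of members). The value was 0.916 without the 2 libraries farthest from the median of Cebpb. It was 0.935 at 6 h, 0.924 at 24 h, 0.92 among the 18 rats given taurocholate and 0.884 among the 12 Sham and Con rats. After each group's mean was taken away it was 0.809, so rats within a group also shared a high or a low level of both. Cebpa and Cebpg ran in opposite directions, with r = -0.594 (permutation p = 0.00073, adjusted 0.0022), rho = -0.67, r = -0.566 without the 2 farthest libraries, and -0.417 after group means were taken away. Within times, this was -0.763 at 6 h and -0.365 at 24 h. The other 4 pairs had r between 0.0202 and 0.384, and none passed after adjustment. The permutations moved all 30 libraries freely across the 10 groups, so differences between groups also enter these p. The values of r after group means were taken away were not tested. Libraries share scaling and tissue makeup, which also enter such values.

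**Figure D4:**
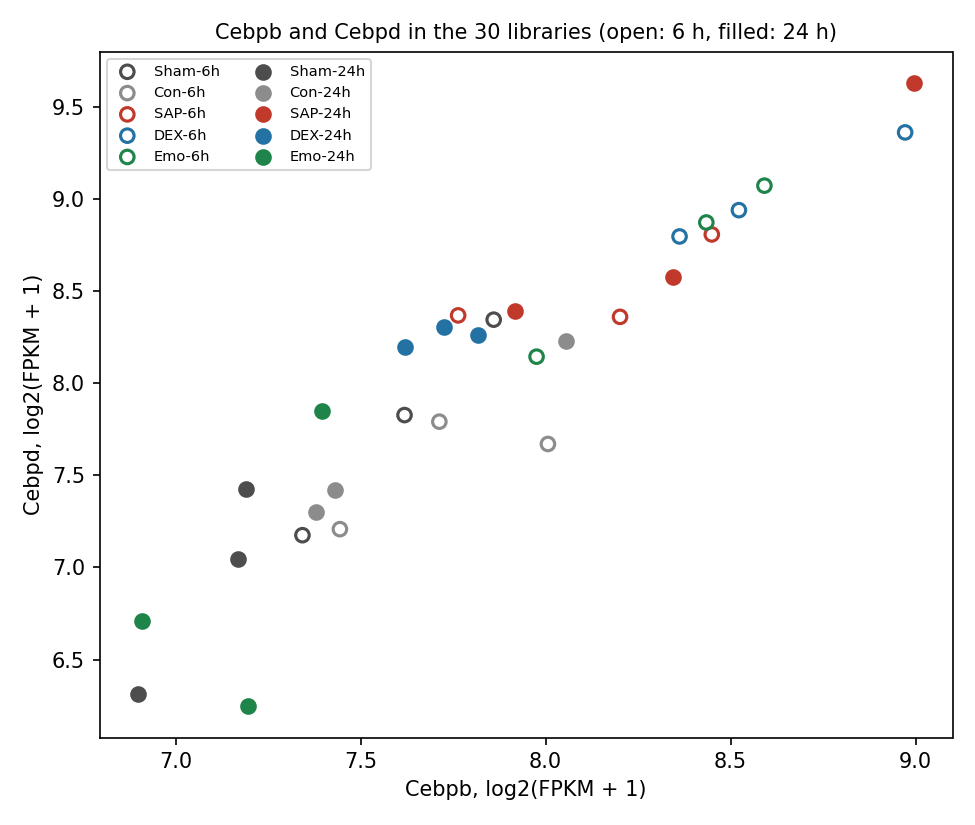
Levels of Cebpb (horizontal axis) and Cebpd (vertical axis), both as log2(FPKM + 1), in the 30 libraries, with colours for groups, open points for 6 h and filled points for 24 h. The points lie along 1 line (r = 0.934), with replicate 1 of SAP-24h at the upper end and Sham-24h and Emo-24h at the lower end.

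Among 12405 genes with a mean of at least 1 FPKM, the genes closest in pattern to each member were listed by Pearson's r over the 30 libraries, as a description. Sik1, a kinase gene induced by cyclic AMP, came first for both Cebpb (r = 0.919) and Cebpd (r = 0.93), and Wbp1l was near the top of both (0.91 and 0.915). The others for Cebpb were Il4r, the interleukin-4 receptor (0.902), Bag3, a co-chaperone (0.9), and Mt1, a metallothionein (0.898). For Cebpd they were Rassf1 (0.924), Rn60_1_2787.1 (0.911) and Lrrc32, which anchors latent TGF-β (0.894). The list of Cebpa held Napsa, the alveolar type 2 cell protease that processes surfactant protein (0.861), and the epithelial protease gene St14 (0.865), followed by Traf4 (0.846), Pdk2 (0.844) and Ptov1 (0.842). That of Cebpg held the endoplasmic reticulum chaperone Dnajb9 (0.903), Rab11a (0.9), B3galnt2 (0.899), Twf1 (0.898) and Tmed2 (0.89), among 118 genes with an r of at least 0.8. Ranked by Spearman's rho, 3 of the 5 genes stayed for Cebpa, 2 for Cebpb, 4 for Cebpd and 1 for Cebpg. Ranked among the 18 rats given taurocholate, 3 stayed for Cebpa, 3 for Cebpb, 3 for Cebpd and 1 for Cebpg.

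Genes around the family in its pathway were counted from lists. Upstream of Cebpb and Cebpd, 12 of 13 cytokine, receptor and signalling genes could be tested, and 5 were called higher and 0 lower by edgeR in SAP-24h against Sham-24h, where 1.98% of all genes were called higher. Their median log2 fold change was 1.17, against -0.03 over all genes. Socs3, a feedback inhibitor that STAT3 induces, rose from 20.1 FPKM ± 11.9 to 160 ± 110 (log2 fold change 3.16, SE 0.555, edgeR adjusted p = 0.00167). Osmr, the oncostatin M receptor (1.58), and Stat3, which carries the interleukin-6 signal to Cebpb and Cebpd (1.30), were called too. Il6 itself was near the floor, at 2 to 4 reads in Sham-24h and 3 to 406 in SAP-24h, and its call was lost without replicate 1 of SAP-24h or replicate 2 of Sham-24h.

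Of 18 known targets of C/EBPβ and C/EBPδ, 16 could be tested. In SAP-24h against Sham-24h 6 were called higher and 0 lower by edgeR, with a median log2 fold change of 1.75, beside the same 1.98% of all genes called higher. Lbp, the lipopolysaccharide-binding protein, rose from 23.8 FPKM ± 8.63 to 83.1 ± 8.47 (log2 fold change 1.93, SE 0.252, edgeR adjusted p = 0.000405). Orm1, the acute phase α1-acid glycoprotein, rose from 2.28 ± 0.481 to 17.3 ± 6.49 (3.04, SE 0.659, adjusted p = 0.00552). Cxcl1, a neutrophil attractant, was called at 2.15, but its groups overlapped and the call was lost without replicate 1 of SAP-24h or replicate 2 or 3 of Sham-24h. Il6 belongs to this list as well. Of 12 C/EBPα-dependent genes of lung epithelium and of 10 targets of ATF4 and C/EBPγ, edgeR called 0, where 5.00% of all genes were called, with medians of 0.27 and 0.37. Whether these lists differed from the targets was not tested. At an unadjusted p under 0.05, 4 and 5 of them passed, as did 28.4% of all genes, and DESeq2 also called 0 in each list.

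**Figure D5:**
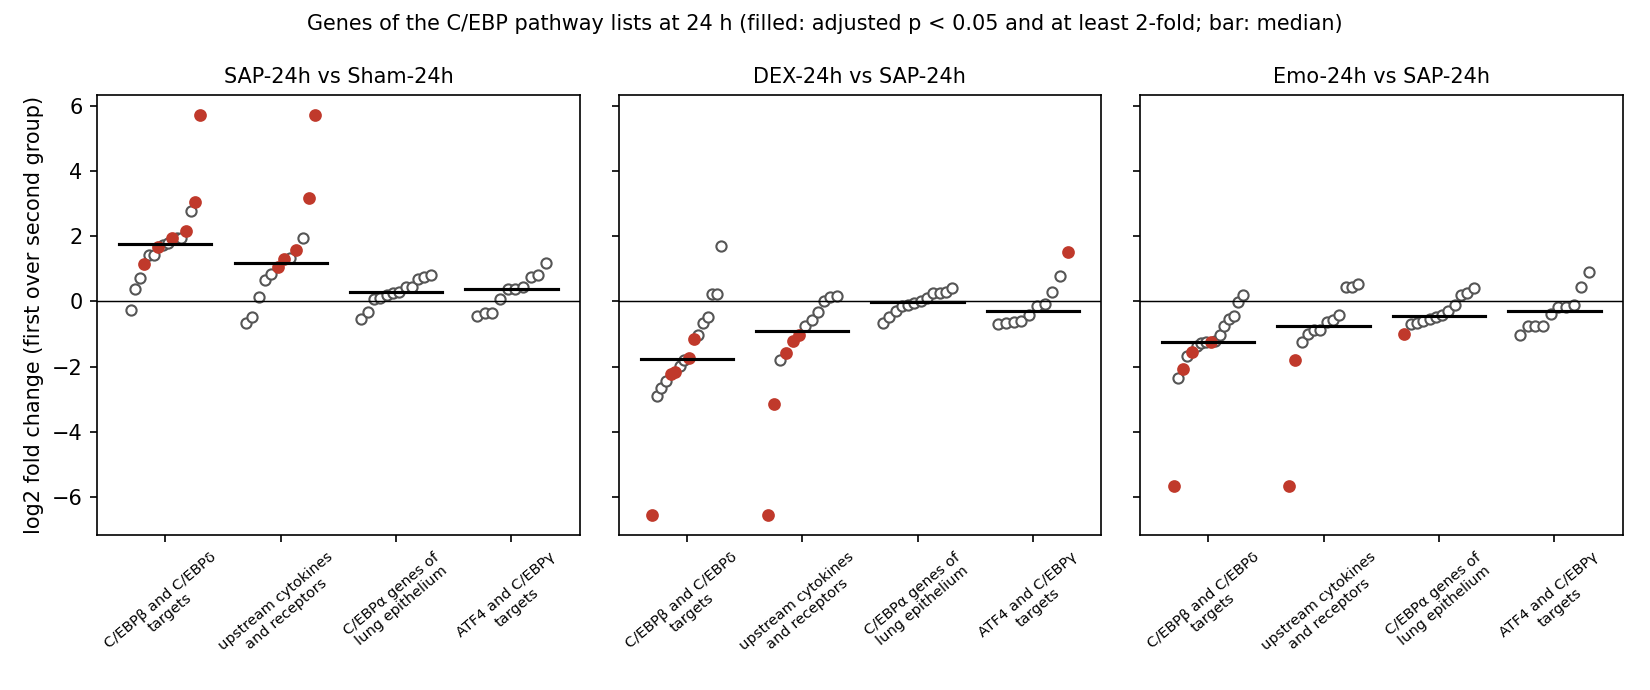
Log2 fold change (vertical axis) of single genes in 4 pathway lists in 3 comparisons at 24 h, with filled points for genes called by edgeR and bars for list medians. The medians of C/EBPβ and C/EBPδ targets and of upstream genes lay above 0 in SAP-24h against Sham-24h and below 0 in both treatments against SAP-24h, and the single farthest point in each is Il6.

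A list of 10 genes was drawn up as relatives, dimer partners or regulators of the family, named partners below. Of these, edgeR called 4 higher and 1 lower in SAP-24h against Sham-24h, where it called 1.98% of all genes higher and 3.01% lower. Nfil3, a leucine zipper repressor, rose from 6.83 FPKM ± 2.75 to 29.6 ± 16.2 (log2 fold change 2.27, SE 0.408, edgeR adjusted p = 0.00203). Trib1, which directs C/EBPα to degradation, had 1.59 (adjusted p = 0.00337), and Batf, a leucine zipper gene of immune cells, had 1.30. Dbp, an output gene of the circadian clock, was called at -2.28, but its groups overlapped, at 15.4 to 123 FPKM in Sham-24h and 6.04 to 18.5 in SAP-24h. The call of Dbp ended without replicate 1 or 3 of SAP-24h or replicate 1 of Sham-24h (-0.98).

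In the treated groups, genes of these lists were called in the other direction, against the same SAP-24h rats. In Emo-24h against SAP-24h, 4 of 16 targets of C/EBPβ and C/EBPδ were called lower and 0 higher (median -1.25, against 0.02 over all genes), where 1.26% of all genes were called lower. In DEX-24h against SAP-24h, 5 were called lower and 0 higher (median -1.77), where 2.55% of all genes were called lower. Lbp was lower in Emo-24h (39.2 FPKM ± 3.63, log2 fold change -1.24, edgeR adjusted p = 0.0058) and in DEX-24h (26.5 ± 7.11, -1.74, adjusted p = 0.000215), and it kept its call without any 1 library. Orm1 was lower in Emo-24h (4.36 FPKM ± 5.15, log2 fold change -2.09, edgeR adjusted p = 0.0421), a call lost in 5 of 6 fits that each left out 1 library, with log2 fold changes from -3.83 to -1.66. In DEX-24h, Orm1 went the other way and stood at 58.2 ± 3.32, above 17.3 ± 6.49 in SAP-24h, but was not called. For Orm1, Emo-24h was below DEX-24h by 3.76 on the log2 scale (edgeR adjusted p = 0.00133). Cd14, the lipopolysaccharide co-receptor, was called in Emo-24h (-1.54), and Slpi, an inhibitor of neutrophil elastase (-2.16), and Cxcl1 (-2.24) in DEX-24h. Of the upstream genes, 2 were called lower in Emo-24h and 5 in DEX-24h, with 0 higher in each, beside those shares of all genes. Socs3 stood at 52.7 FPKM ± 0.478 in Emo-24h (log2 fold change -1.79, edgeR adjusted p = 0.0376) and at 19.8 ± 4.55 in DEX-24h (-3.14, adjusted p = 0.00154), and Osm (-1.58) and Osmr (-1.23) were called in DEX-24h.

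Partners were called lower in 3 and higher in 1 of 10 in Emo-24h, namely Nfil3 (-2.11), Trib1 (-1.24), Atf4 (-1.07) and Dbp (2.33), where 1.26% of all genes were called lower and 1.93% higher. In DEX-24h Nfil3 alone was called (-1.41), where 2.55% of all genes were called lower and 1.18% higher. Sftpd, surfactant protein D, was the 1 gene of the C/EBPα list called in Emo-24h (-1.01), with overlapping groups. Of the ATF4 and C/EBPγ list, Psat1, an enzyme of serine synthesis, rose in DEX-24h from 6.18 FPKM ± 0.645 to 18.8 ± 3.25 (log2 fold change 1.51, edgeR adjusted p = 0.000472), and in Emo-24h against DEX-24h Psat1 (-1.68) and Ddit4 (-1.82) were called lower, where 1.24% of all genes were. Of the C/EBPα list, Sftpb, surfactant protein B, was called lower in that comparison (4740 FPKM ± 1210 against 9820 ± 1610, log2 fold change -1.11, edgeR adjusted p = 0.00521), a call lost without replicate 2 of Emo-24h. As a check of the drug, Sgk1, a glucocorticoid receptor target, was called higher in DEX-24h (91.2 FPKM ± 24.2 against 22.7 ± 3.37, log2 fold change 1.92, edgeR adjusted p = 2.2e-05), the 1 such gene called of 9 tested for the 8 symbols of the list, where 1.18% of all genes were called higher. Mt2A, a metallothionein also on that list, stood at 1900 FPKM ± 2380 in SAP-24h and was called higher than in Sham-24h (5.55, and 3.58 without replicate 1 of SAP-24h). Its call in Emo-24h against SAP-24h (-4.25) was lost without replicate 1 of SAP-24h (-2.29) or replicate 1 or 2 of Emo-24h. Of the 9 tested, 6 were called lower in Emo-24h than in DEX-24h, among them Fkbp5, the chaperone gene induced by glucocorticoids (log2 fold change -2.19, edgeR adjusted p = 0.00332). Without replicate 3 of Emo-24h, the values against DEX-24h were -2.93 for Fkbp5, -2.57 for Ddit4 and -5.53 for Orm1.

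Replicate 1 of SAP-24h bore on these counts. Without it, called targets of C/EBPβ and C/EBPδ numbered 3 instead of 6 in SAP-24h against Sham-24h, 1 instead of 4 in Emo-24h and 1 instead of 5 in DEX-24h. Lbp remained among the called targets in all 3 comparisons without that library, and the list medians were 1.48, -1.06 and -1.51. Called upstream genes numbered 1 instead of 5, 0 instead of 2 and 1 instead of 5. The share of all genes called in these fits was not counted. A loss of calls particular to the lists therefore cannot be told apart from a loss over all genes. Among the genes named, leaving out replicate 1 of SAP-24h also ended the calls of Stat3, Osmr, Batf and Dbp in SAP-24h, of Cd14, Socs3, Trib1, Atf4, Dbp, Il6 and Orm1 in Emo-24h, and of Osm, Osmr, Nfil3, Slpi, Il6 and Cxcl1 in DEX-24h. The log2 fold change without it was 2.36 for Socs3, 1.68 for Nfil3, 0.75 for Cxcl1 and 2.13 for Il6 in SAP-24h, -1.0 for Socs3 in Emo-24h, and -2.32 for Socs3, -0.81 for Nfil3 and -0.82 for Cxcl1 in DEX-24h. Other libraries ended calls as well. Of the 6 fits that each left out 1 library of the compared groups, the call was lost in 5 for Sftpd in Emo-24h and for Slpi in DEX-24h. It was lost in 4 for Socs3, Il6 and Dbp in Emo-24h and for Osm, Osmr and Nfil3 in DEX-24h, and in 3 for Trib1 and Atf4 in Emo-24h, for Cxcl1 and Il6 in DEX-24h and for Batf in SAP-24h. In models of the compared groups alone, 0 genes of these lists were called in SAP-24h against Sham-24h or in Emo-24h against SAP-24h, beside 0.0200% and 0.00% of all genes. In those models Lbp had an edgeR adjusted p of 0.0609 and 0.0671. At 6 h, edgeR and DESeq2 called 0 of the 57 genes tested from these 5 lists in SAP-6h against Sham-6h, in DEX-6h against SAP-6h and in Emo-6h against SAP-6h. At an unadjusted p under 0.05, 6, 15 and 5 of them passed, beside 13.1%, 12.1% and 13.5% of all genes.

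Markers of other cells were read beside the members. The neutrophil list held S100a8, S100a9, Csf3r, Mmp8, Cxcr2, Ngp, Camp, Mpo and Elane, and S100a8 and S100a9, which are also on the list of C/EBPβ and C/EBPδ targets, made up 85.5% to 98.4% of its summed FPKM. The sum of the 9 genes was 12600, 4470 and 16400 FPKM in the rats of SAP-24h, 1470, 203 and 9260 in Sham-24h, 957, 105 and 189 in Con-24h, 2220, 1020 and 2980 in DEX-24h, and 4420, 6600 and 4270 in Emo-24h. Without S100a8 and S100a9, it was 237, 190 and 340 in SAP-24h, 196, 17.1 and 151 in Sham-24h, 28.8, 15.2 and 16.9 in Con-24h, 84.9, 49.9 and 60.2 in DEX-24h, and 129, 134 and 120 in Emo-24h. Replicate 2 of SAP-24h, at 4470, lay below replicate 3 of Sham-24h, at 9260, and replicate 1 of SAP-24h, the highest in Cebpb and Cebpd, had a lower sum than replicate 3. In the sum without S100a8 and S100a9, replicate 2 of SAP-24h (190) lay above replicate 3 of Sham-24h (151) but below its replicate 1 (196). EdgeR called 0 of the 9 in SAP-24h against Sham-24h (3 at an unadjusted p under 0.05, beside 28.4% of all genes), 9 higher in SAP-24h against Con-24h, 3 lower in Con-24h against Sham-24h, 2 lower in DEX-24h and 1 lower in Emo-24h, both against SAP-24h. The shares of all genes called in these directions were 3.65%, 0.916%, 2.55% and 1.26%. The median log2 fold changes were 1.73, 4.28, -2.61, -2.44 and -1.21. The sum of 8 macrophage genes was 185 to 196 FPKM in Sham-24h and 142 to 272 in SAP-24h, with Marco listed at 0 in Sham-24h. In that comparison edgeR called 1 of 8 macrophage genes higher and 1 of 5 liver genes lower, where 1.98% of all genes were called higher and 3.01% lower. These were Marco, listed at 0 to 0.86 FPKM in SAP-24h, and Serpina1, an antiprotease (log2 fold change -1.64, adjusted p = 0.0188), both named after their values were seen. The median log2 fold change was 0.25 for the macrophage list and 1.32 for the liver list, so Serpina1 ran against the median of its list. Sums of the 5 liver genes were 12.0 to 36.1 FPKM in Sham-24h and 7.41 to 10.6 in SAP-24h. Alveolar type 2 sums were 25100 to 35300 FPKM in Sham-24h, 28300 to 47800 in SAP-24h and 26200 to 31500 in Emo-24h, and club cell sums 20000 to 36400, 37500 to 47300 and 26100 to 38000. The part of cell makeup in the results on the members was not tested.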

How the data were processed

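Polyadenylated RNA of 30 lungs was sequenced from directional libraries as paired reads. The authors trimmed reads with the FASTX-Toolkit, aligned them with TopHat2 (up to 2 mismatches) to the Ensembl rat genome rat_ensembl_v6 and discarded reads that mapped to several places. They deposited counts of uniquely mapped reads per gene and, in a second table, FPKM per gene, rounded by the authors to 2 decimals. The program that counted reads was not given in the sources used here. The strand of the libraries does not tell whether strand was used in counting, so antisense reads may be counted with a gene.

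Counts were filtered with filterByExpr (at least 10 reads in a sufficient number of libraries and 15 in all), scaled by TMM and fitted with edgeR 4.0.16 (limma 3.58.1, R 4.3.3) in 1 model of 10 groups with 20 residual degrees of freedom. The quasi-likelihood test was adjusted by Benjamini-Hochberg over 15934 genes in each of 21 comparisons and 3 interactions with time. FPKM were used for levels, ratios (pseudocount 0.1) and correlations (pseudocount 1). Exact and permutation tests, figures and promoter searches used Python 3.11.15, numpy 2.4.6, pandas 2.3.3, scipy 1.17.1 and matplotlib 3.10.9. Alternatives were RLE scaling, DESeq2 1.42.0, no filter, a replicate block, models of the compared groups alone, other call thresholds, another pseudocount and leaving out each library. The fits were tested on simulated data. The total behind each library's FPKM was taken from the ratio of reads to FPKM over 2489 well-covered genes. From each pathway list the text names at most 4 called genes in a comparison, by size of log2 fold change, and for each member the 5 genes with the highest Pearson's r. The members and lists were chosen with earlier results of these data known. Replicates were separate rats, and replicate numbers were not described as pairing the groups.

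The lists were as follows. Genes listed as relatives, partners or regulators were Cebpe, Cebpz, Ddit3, Atf4, Batf, Trib1, Trib2, Trib3, Nfil3 and Dbp. Whether each of them pairs with a C/EBP protein was not tested. Upstream genes were Il6, Il1b, Tnf, Osm, Lif, Csf3, Il6r, Il6st, Il1r1, Osmr, Stat3, Socs3 and Nr3c1. Targets of C/EBPβ and C/EBPδ were Lcn2, Hp, Lbp, Orm1, C3, Ptgs2, Il6, Csf3, Cxcl1, Ccl2, Il1b, Nos2, Chi3l1, Cd14, S100a8, S100a9, Slpi and 1 gene that is counted in the list but not reported here. C/EBPα-dependent genes were Sftpa1, Sftpb, Sftpc, Sftpd, Abca3, Lpcat1, Scgb1a1, Scgb3a2, Cyp2b1, Cyp2f4, Fasn, Scd and Pparg. Targets of ATF4 and C/EBPγ were Asns, Chac1, Trib3, Slc7a11, Psat1, Phgdh, Shmt2, Sesn2, Ddit4 and Gclm. Glucocorticoid receptor targets were Fkbp5, Tsc22d3, Per1, Zbtb16, Dusp1, Klf9, Sgk1 and Mt2A.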

Additional observations from a re-analysis of the deposited data

Results flagged for a closer look

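The effect of emodin passed the test of a difference between times for Cebpb and Cebpd. In edgeR's interaction test, the log2 fold change of Emo against SAP at 24 h minus that at 6 h was -1.66 for Cebpb and -2.26 for Cebpd. In Emo against SAP, each of the 3 rats of Emo-24h lay below each rat of SAP-24h for both genes, while the groups overlapped at 6 h. The call was lost in 6 of 12 fits that each left out 1 library for Cebpb and in 7 of 12 for Cebpd. In a model of the compared groups alone, edgeR's adjusted p was 0.128 and 0.137.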

How the results depend on the processing

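Each group held 3 rats, and replicate 1 of SAP-24h was its highest library for Cebpb and Cebpd. With RLE scaling, DESeq2, no filter on low counts or a replicate block, each call of edgeR on a member held, and the additions were made by DESeq2 alone. DESeq2 added Cebpd in Emo-24h against DEX-24h (-1.22), DEX-6h against Sham-6h (1.27) and DEX-24h against Sham-24h (1.31), and the interaction of DEX with time for Cebpb (-1.38). It called 6.20%, 4.83%, 5.14% and 1.06% of all genes in these contrasts, in that order. The difference of Cebpg in DEX-6h against SAP-6h changed sign around 0, from -0.01 to 0.01 with RLE, DESeq2 and the compared groups alone, and to 0.00 with no filter. The cause was not tested for any of these.

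Fits of the compared groups alone, which have 4 residual degrees of freedom for 2 groups, gave log2 fold changes of 1.56 for Cebpb and 2.14 for Cebpd in SAP-24h against Sham-24h, -1.48 and -2.05 in Emo-24h against SAP-24h, 1.42 for Cebpd in SAP-24h against Con-24h, and -1.67 and -2.27 for the interactions of emodin with time. None of these was past the threshold there. Cebpd in DEX-24h against Sham-24h (1.29) was. Without a fold minimum, calls were added for Cebpg in Emo-24h against SAP-24h (-0.46), SAP-24h against SAP-6h (0.49), DEX-24h against DEX-6h (0.43), Con-24h against Sham-24h (-0.41) and SAP-24h against Con-24h (0.76), for Cebpb in DEX-24h against DEX-6h (-0.91) and SAP-24h against Con-24h (0.98), and for Cebpa in Emo-24h against Emo-6h (-0.49). With an unadjusted p under 0.05 and 2-fold, Cebpd was added in Emo-24h against DEX-24h (-1.21), DEX-6h against Sham-6h (1.25), DEX-24h against Sham-24h (1.29) and SAP-6h against Con-6h (1.03), as were the interactions of SAP (1.40) and DEX (-1.36) with time for Cebpd and of DEX for Cebpb (-1.35). Of all genes, 8.32%, 6.80%, 7.63% and 2.65% passed that threshold in these comparisons, in that order. In the interactions, 6.27% passed it for SAP and 4.85% for DEX.

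With each library left out in turn, Cebpb kept its calls in SAP-24h against Sham-24h (1.14 to 1.80) and Emo-24h against SAP-24h (-1.74 to -1.08), and Cebpd kept its call in SAP-24h against Sham-24h (1.57 to 2.43). Calls were lost in some fits for Cebpd in Emo-24h against SAP-24h (-2.74 to -1.49) and SAP-24h against Con-24h (0.85 to 1.78), Cebpb in DEX-6h against Sham-6h (0.88 to 1.22), and the interactions of emodin (Cebpb -1.91 to -1.26, Cebpd -2.95 to -1.70). Calls were gained for Cebpb in SAP-24h against Con-24h (0.56 to 1.24, without replicate 1 of Con-24h or replicate 2 or 3 of SAP-24h), DEX-24h against DEX-6h (-1.06 to -0.71, without replicate 3 of DEX-6h) and DEX-24h against SAP-24h (-1.11 to -0.46, without replicate 2 of SAP-24h), and for Cebpd in Emo-24h against DEX-24h (-1.92 to -0.93, without replicate 3 of Emo-24h) and DEX-6h against Sham-6h (1.01 to 1.58, without replicate 2 of Sham-6h). Differences near 0 changed sign for Cebpa in Con-24h against Con-6h (-0.07 to 0.11), SAP-24h against Con-24h (-0.18 to 0.03), SAP-6h against Con-6h (-0.03 to 0.15), Emo-6h against DEX-6h (-0.02 to 0.07), Emo-6h against SAP-6h (-0.12 to 0.04), DEX-6h against SAP-6h (-0.14 to 0.02), Emo-24h against Sham-24h (-0.10 to 0.00) and the SAP interaction (-0.06 to 0.21). They did so for Cebpb in Con-24h against Con-6h (-0.30 to 0.15), Con-6h against Sham-6h (-0.09 to 0.26), Emo-24h against Sham-24h (-0.10 to 0.20) and Emo-6h against SAP-6h (0.00 to 0.39), and for Cebpd in Con-24h against Con-6h (-0.18 to 0.35), Emo-24h against Sham-24h (-0.59 to 0.39) and Con-6h against Sham-6h (-0.54 to 0.01). For Cebpg they did so in DEX-6h against SAP-6h (-0.11 to 0.09), DEX-6h against Sham-6h (-0.17 to 0.05), DEX-24h against SAP-24h (-0.15 to 0.07), SAP-6h against Sham-6h (-0.17 to 0.06), Sham-24h against Sham-6h (-0.05 to 0.17) and the DEX interaction (-0.16 to 0.07).

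Counts of called list genes were rerun the same way, chosen after seeing the data. For fits that left out 1 library, the share of all genes called was not counted. Leaving out 1 library gave, in SAP-24h against Sham-24h, Emo-24h against SAP-24h and DEX-24h against SAP-24h, 3 to 8, 1 to 4 and 1 to 5 targets of C/EBPβ and C/EBPδ, 1 to 6, 0 to 3 and 1 to 5 upstream genes, and 2 to 6, 1 to 5 and 0 to 3 partners. C/EBPα genes were 0 to 1 in the comparisons with SAP-24h of Sham-24h and Emo-24h, ATF4 and C/EBPγ targets 0 to 1 in Emo-24h, and glucocorticoid targets 0 to 3 in Emo-24h and 1 to 2 in DEX-24h. With the compared groups alone, counts in SAP-24h against Sham-24h and in Emo-24h against SAP-24h were 0 in each list (0.0200% and 0.00% of all genes called), and in DEX-24h against SAP-24h they were 3 targets, 1 upstream gene, 0 partners and 3 glucocorticoid targets (1.49% of all genes). DESeq2 called 3 partners in DEX-24h, 1 ATF4 and C/EBPγ target in Emo-24h and 2 glucocorticoid targets in each comparison, where it called 4.94% of all genes in DEX-24h, 4.39% in Emo-24h and 6.15% in SAP-24h against Sham-24h. No filter left 3 targets in DEX-24h.

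Replicate numbers were not described as pairing the groups. Same-numbered rats deviated together (all 3 correlations over 0.1) in 1 of 21 comparisons, with r from -0.413 to 0.392. That comparison was DEX-24h against DEX-6h (0.23, 0.248 and 0.247). With 3 rats in each group, this check cannot settle whether replicates were paired. With a replicate block, calls on the members were unchanged in all 24 contrasts, with Cebpb at 1.48 and Cebpd at 2.03 in SAP-24h against Sham-24h, and at -1.61 and -2.21 in the interaction of emodin with time. The block left 1 upstream gene and 0 C/EBPα genes called in Emo-24h against SAP-24h.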
